A study of Mus musculus with 12 samples.

Results

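The cerebellum (Cb) of *Tpp1*-deficient mice was compared with that of wild-type (WT) siblings by poly(A) RNA sequencing. Of the 12 libraries of the study, the 6 with a cerebellum label were taken: Cb-T1 to Cb-T3 from *Tpp1*-/- mice and Cb-N1 to Cb-N3 from WT mice. All mice were males of 4 months of age from crosses of heterozygous mice, and *Tpp1* was disrupted in the germline by gene targeting, so that every cell type carries the disrupted gene. The other 6 libraries came from forebrain/midbrain (F/M), 3 of WT (F/M-N) and 3 of *Tpp1*-/- mice (F/M-T), and served here as a reference for levels outside the cerebellum. By the study's methods, Cb and F/M of 3 mice of each genotype were used, so that libraries of both tissues may come from the same mice. Total counts were 22542211, 21834686 and 21428379 in Cb-N1 to Cb-N3 and 22805423, 23921516 and 23096463 in Cb-T1 to Cb-T3. Levels are given as CPM (counts scaled to library size) after TMM normalization, with the values of replicates 1, 2 and 3 in that order. At these depths 3 counts, the floor taken as detectable, correspond to 0.137 CPM in the Cb-N libraries and 0.124 CPM in those of Cb-T, which covers counting error only.

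*Tpp1* encodes tripeptidyl peptidase I, a serine protease of the lysosome that removes tripeptides from the ends of proteins, and its loss causes late-infantile neuronal ceroid lipofuscinosis (NCL), a storage disease of neurons. Storage material holds subunit c of the mitochondrial ATP synthase, and glial cells become reactive as neurons degenerate. In the cerebellum, Purkinje cells are the only output of the cortex, granule cells drive them through parallel fibers, and Bergmann glia, other astrocytes and microglia surround both.

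In Cb-T, transcripts of reactive microglia (*Gpnmb*, *Lyz2*), of reactive astrocytes (*Gfap*) and of the interferon response (*Isg15*, *Ifit1*) were higher than in Cb-N in every library. *Tpp1* itself and the activity-regulated receptors *Nr4a3* and *Nr4a2* were lower, and so was the clock gene *Per2*. Most markers of granule and Purkinje cells were lower by less than the fold limit, and none was a DEG. A further large set of genes that WT cerebellum hardly expresses, among them transcription factors of midbrain and thalamus and Hox genes of the lower hindbrain, was also higher in Cb-T.

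The files list 52459 genes, of which 16382 had enough counts to be tested in the 6 cerebellar libraries. A gene was called a differentially expressed gene (DEG) when edgeR gave a false discovery rate (FDR) below 0.1 and the groups differed at least 1.5-fold. Of the tested genes, 1399 (8.54%) were higher and 436 (2.66%) lower in Cb-T, with a median log2 fold change (l2fc, Cb-T against Cb-N) of 0.01. The libraries of Cb-T and Cb-N did not overlap for 1333 of the higher and 396 of the lower genes. The share of all tested genes with separate libraries is not given. Separation and call come from the same libraries, so neither these counts nor later remarks on overlap add support to a call. Replicates were close, with a common biological coefficient of variation of 0.0219, and no pair of libraries held the same values. Set against sampling of reads alone, where chi-square over its degrees of freedom is 1, pairs of Cb-N libraries gave 1.28 to 2.28 and pairs of Cb-T libraries 1.43 to 1.77. The 3 mice named in the methods fit 1 library per mouse, although no label ties a library to a mouse. All p-values and SE measure the spread between these libraries.

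Because Cb-T may hold tissue from outside the cerebellum, genes were separated by their mean CPM in F/M-N relative to Cb-N, with means under the floor set to the floor. At a similar level, within 1.5-fold, were 9701 tested genes, of which 346 (3.57%) were higher and 91 (0.938%) lower in Cb-T. Their median l2fc was 0.01. Of these, 319 higher and 83 lower genes had libraries that did not overlap. In contrast, of 809 tested genes with a level 4-fold or more higher in F/M-N, 485 (60.0%) were higher and 1 (0.124%) lower, with a median l2fc of 0.77. The share higher in Cb-T therefore differed widely between these classes, although no test was made between them.

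Between these classes, 2449 tested genes were 1.5- to 4-fold higher in F/M-N, and 476 (19.4%) of them were higher and 18 (0.735%) lower in Cb-T. Of 3394 tested genes more than 1.5-fold lower in F/M-N, 63 (1.86%) were higher and 326 (9.61%) lower, with a median l2fc of -0.20. This class of genes with a preference for the cerebellum held 74.8% of all DEG with lower values, and the similar-level class 20.9%. The remaining 29 tested genes were at or under the floor in both WT tissues. The filter asks for 0.441 CPM in 3 libraries. A gene that reached this in all 3 libraries of 1 group and in fewer of the other is called carried by that group, and the filter favors its higher value there. Cb-T carried 617 tested genes, of which 413 were DEG with higher values: 78 at a similar level, 175 in the 4-fold class, 112 in the class between them, 19 in the class lower in F/M-N and the 29 at the floor. Cb-N carried 295, of which 121 were DEG with lower values. Among genes that neither group carried, 268 of 9447 (2.84%) were higher and 63 (0.667%) lower at a similar level, and 310 of 616 (50.3%) and 1 in the 4-fold class. Of genes named in this text, Cb-T carried *Atp6v0d2*, *Caps2*, *Ccl3*, *Cd22*, *Cdk1*, *Ch25h*, *Chat*, *Clec7a*, *Crhbp*, *Cst7*, *Cxcl9*, *Cxcl10*, *Egr2*, *Il1a*, *Itgax*, *Lck*, *Lcn2*, *Lhx2*, *Lilrb4a*, *Ly9*, *Mmp12*, *Ms4a7*, *Nlrp3*, *Pdyn*, *Pou4f2*, *Ptx3*, *Rgs1*, *Serpinf2*, *Shox2*, *Six3*, *Sprr1a*, *Tfap2d*, *Timp1*, *Tnfsf8*, *Trib3*, *Trim34b*, *Zbp1* and the Hox genes, and Cb-N carried *C4a*, *Gabrr2*, *Lyve1*, *Masp2*, *Phospho1*, *Trim12a*, *Trim30d* and *Trim34a*. At a similar level 7 tested genes had a WT mean under the floor. Counts at an unadjusted p below 0.05, given for lists below, compare with 29.1% of all tested genes higher and 27.4% lower at that limit, with 26.8% and 25.4% at a similar level, and with 7.54% and 51.4% in the class lower in F/M-N. Counts of DEG in lists compare with 8.54% higher and 2.66% lower over all tested genes, and with the shares given above for each class. Above the floor, any mixture of RNA like that of Cb-N and of F/M-N changes a gene of the similar-level class by at most 1.5-fold, the limit of the class. This bound does not hold for tissue unlike F/M-N, such as that marked by the Hox genes below. The part of such tissue in the DEG at a similar level was not tested. The mean of Cb-N enters both the class and the fold change. At the limits of the classes, the DEG closest to the lower limit were *Phospho1* and *Gm2762*, with a level in F/M-N of 0.666 and 0.667 times that in Cb-N. At the upper limit of the similar class stood *Sqstm1* (1.498 times) and *Caps2* (1.503 times), and at the limit of 4-fold *Wnt7b* (3.97) and *Tpd52l1* (4.004).

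**Figure D1:**
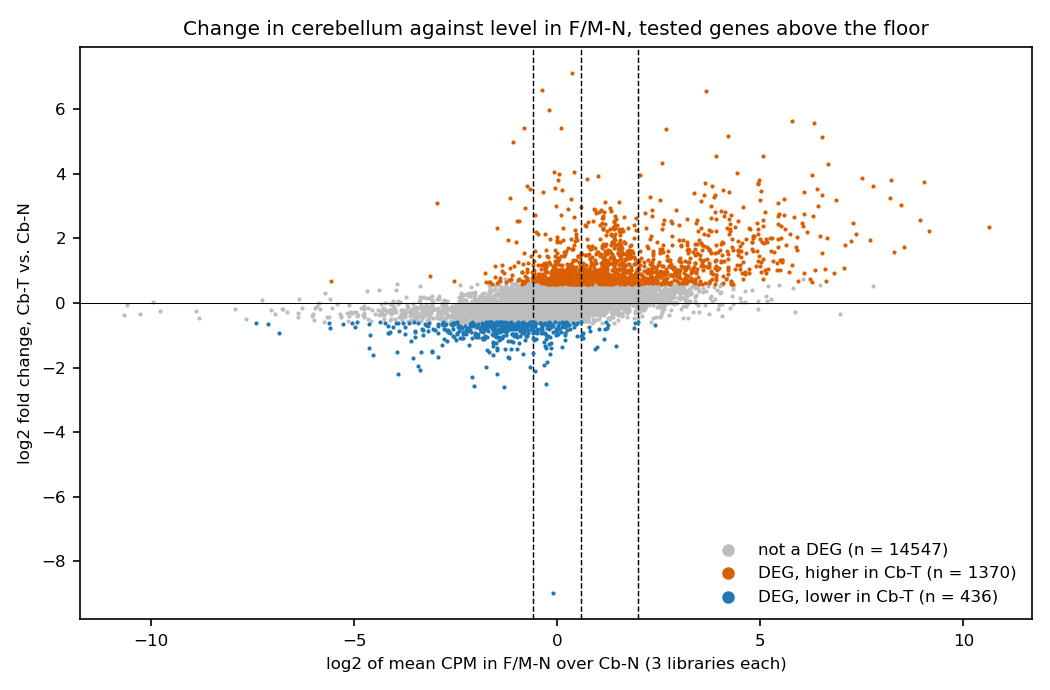
Fold change in the cerebellum (y axis, log2 of Cb-T against Cb-N) of each tested gene above the floor, against its mean level in F/M-N relative to Cb-N (x axis, log2). Dashed lines mark 1.5-fold lower, 1.5-fold higher and 4-fold higher in F/M-N, and to the right of the last line nearly all DEG are higher in Cb-T; positions of *Trim12a*, at 0 in Cb-T, and *Rgs1*, at 0 in Cb-N, come from the fit and are not bounds.

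Hox genes pattern the hindbrain behind the cerebellum and the spinal cord, and adult cerebellum and forebrain do not express them. The summed level of 25 Hox genes was 0.622, 0.734 and 0.5105 CPM in Cb-N against 15.4, 14.7 and 14.6 CPM in Cb-T, and 0.231 CPM on average in F/M-N. Every Cb-T library was far above every Cb-N library. Of the 25 genes, 10 passed the filter on low counts, all carried by Cb-T, and all 10 were higher there. In Cb-N, 14 of the 25 were at 0 in all libraries, and in Cb-T 3 (*Hoxb1*, *Hoxc8* and *Hoxc9*). *Hoxb5* had no count in Cb-N and 3.21, 2.34 and 2.07 CPM in Cb-T, at least 18.6-fold higher than the mean floor of a Cb-N library. Per length, the most abundant member in Cb-T was *Hoxa5* (1.19 CPM per kb), with 3 counts in all of Cb-N and 162 in Cb-T, a ratio of 49.0 (95% counting interval 16.5 to 239.9). Since neither Cb-N nor F/M-N expresses these genes, the separation by level in F/M-N has no hold on the tissue they mark. Their part in the other results was not tested.

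Markers of monoamine and motor nuclei, which lie in the midbrain and hindbrain, behaved likewise. Their sum (19 genes) was 89.6, 89.05 and 96.2 CPM in Cb-N against 138, 138 and 143 CPM in Cb-T, and 12 of 14 tested genes were higher in Cb-T, 5 of them carried by Cb-T. *Dbh*, which makes noradrenaline in the locus coeruleus, had 0.533, 0.688 and 0.743 CPM in Cb-N against 7.72, 7.86 and 8.42 CPM in Cb-T (l2fc 3.62, SE 0.171, edgeR adjusted p = 8.13e-22). *Chat*, the enzyme of acetylcholine synthesis in motor neurons, had 0.133, 0.0918 and 0.0928 CPM in Cb-N against 1.86, 1.21 and 1.58 CPM in Cb-T (l2fc 3.81, SE 0.404, edgeR adjusted p = 9.21e-11). *Tph2*, which makes serotonin in the raphe nuclei, had 1.198, 1.101 and 0.743 CPM in Cb-N against 2.95, 3.87 and 3.03 CPM in Cb-T (l2fc 1.70, SE 0.204, edgeR adjusted p = 1.95e-09). For all 3 genes the groups were apart, and the level of *Dbh* in F/M-N (0.3903 CPM) was below that in Cb-T. Per length, *Maoa* was the most abundant member (17.7 CPM per kb in Cb-T), a gene that many cells express, and *Mnx1* was at 0 in both groups.

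Markers of glycine and hindbrain neurons (14 genes) summed to 254, 251 and 259.8 CPM in Cb-N against 401, 395 and 408 CPM in Cb-T. Of 10 tested genes 5 were higher (1 carried by Cb-T) and 2 lower in Cb-T. The most abundant per length was *Spp1* (42.7 CPM per kb), which activated microglia also express. *Slc17a6*, the vesicular glutamate transporter of brainstem and thalamus, had 20.95, 20.1 and 22.5 CPM in Cb-N against 103, 101 and 103 CPM in Cb-T, and *Glra1*, the adult glycine receptor subunit of brainstem and spinal cord, had 1.42, 1.56 and 0.743 CPM in Cb-N against 7.26, 5.398 and 5.89 CPM in Cb-T. Neither gene's groups overlapped. The members with lower values, *Pax2* (l2fc -0.63) and *Tlx3* (-0.60), are transcription factors of inhibitory and sensory neurons, and their WT level was higher in Cb than in F/M. *Lhx4* and *Ucn* had no count in Cb-N.

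Of 14 tested midbrain and tectum markers, 8 were higher in Cb-T, including all 7 with a level 4-fold or more higher in F/M-N, of which Cb-T carried 6. In that class 60.0% of all tested genes were higher. Without the fold limit, 10 members passed FDR with higher and 3 with lower values, the lowest l2fc being -0.32. The sum over 17 genes was 104, 106 and 110.0 CPM in Cb-N against 137, 132 and 132 CPM in Cb-T, with *Barhl2* the most abundant per length (12.3 CPM per kb). *Tfap2d*, a factor of the superior and inferior colliculus, had 0.0444, 0 and 0.0464 CPM in Cb-N against 3.38, 3.63 and 2.94 CPM in Cb-T, which is 2 counts in Cb-N as a whole and 241 in Cb-T, a ratio of 109 (95% counting interval 29.9 to 907). *Pou4f2*, a factor of tectal and retinal neurons, had 2 and 107 counts, a ratio of 48.5 (13.1 to 406). All Cb-T libraries held these transcripts at like levels.

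Forebrain markers differed among themselves. *Tcf7l2*, high in thalamus, had 6.303, 6.38 and 6.68 CPM in Cb-N against 39.7, 35.7 and 34.8 CPM in Cb-T (l2fc 2.52, SE 0.0728, edgeR adjusted p = 1.29e-29), and *Six3*, a factor of the ventral forebrain, had 0.178, 0 and 0.232 CPM in Cb-N against 2.66, 2.86 and 2.86 CPM in Cb-T (l2fc 4.31, SE 0.343, edgeR adjusted p = 2.34e-14). *Lhx2* had an l2fc of 3.79 and the dopamine receptor *Drd2*, which midbrain and striatum express, of 3.22. Cb-T lay above Cb-N in every library for these genes. *Dlx2* and *Nkx2-1* had no count in either group, and the cortical neuron factors *Neurod6* and *Tbr1* were no DEG (l2fc -0.28 and -0.33). In all, 7 of 12 tested forebrain markers were higher (3 carried by Cb-T), their sum (22 genes) was 298, 298 and 311 CPM in Cb-N against 318, 305 and 297 CPM in Cb-T, and *Ppp1r1b* was the most abundant per length (49.2 CPM per kb).

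Choroid plexus and meninges adhere to the dissected cerebellum. The choroid plexus and ependyma sum (14 genes) was 2365, 2357 and 2499.5 CPM in Cb-N against 2271, 2384 and 2404 CPM in Cb-T, with *Ttr* the most abundant per length (1729 CPM per kb). Of its 14 tested genes, 7 were higher and 4 lower at an unadjusted p below 0.05, and 2 were DEG, the ependymal gene *Ccdc153* (l2fc 0.79) and the prolactin receptor *Prlr* (0.65). The meningeal fibroblast sum (12 genes) was 313, 302 and 310.0 CPM in Cb-N against 339.5, 339 and 339 CPM in Cb-T, with *Igf2* the most abundant per length (28.98 CPM per kb). This sum was higher in every Cb-T library. None of its 12 tested genes was a DEG by edgeR, DESeq2 or limma-voom, although 5 were higher and 1 lower at an unadjusted p below 0.05. For these membranes the marker genes *Ttr* (l2fc -0.03), *Folr1* (-0.02), *Dcn* (0.20) and *Lum* (0.00) were no DEG. Other members of the choroid plexus list moved in either direction below the fold limit. Over the alternatives, *Kl* had an l2fc between -0.25 and -0.21. *Aqp1* had values between 0.54 and 0.59 and gained a call without Cb-T1.

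**Figure D2:**
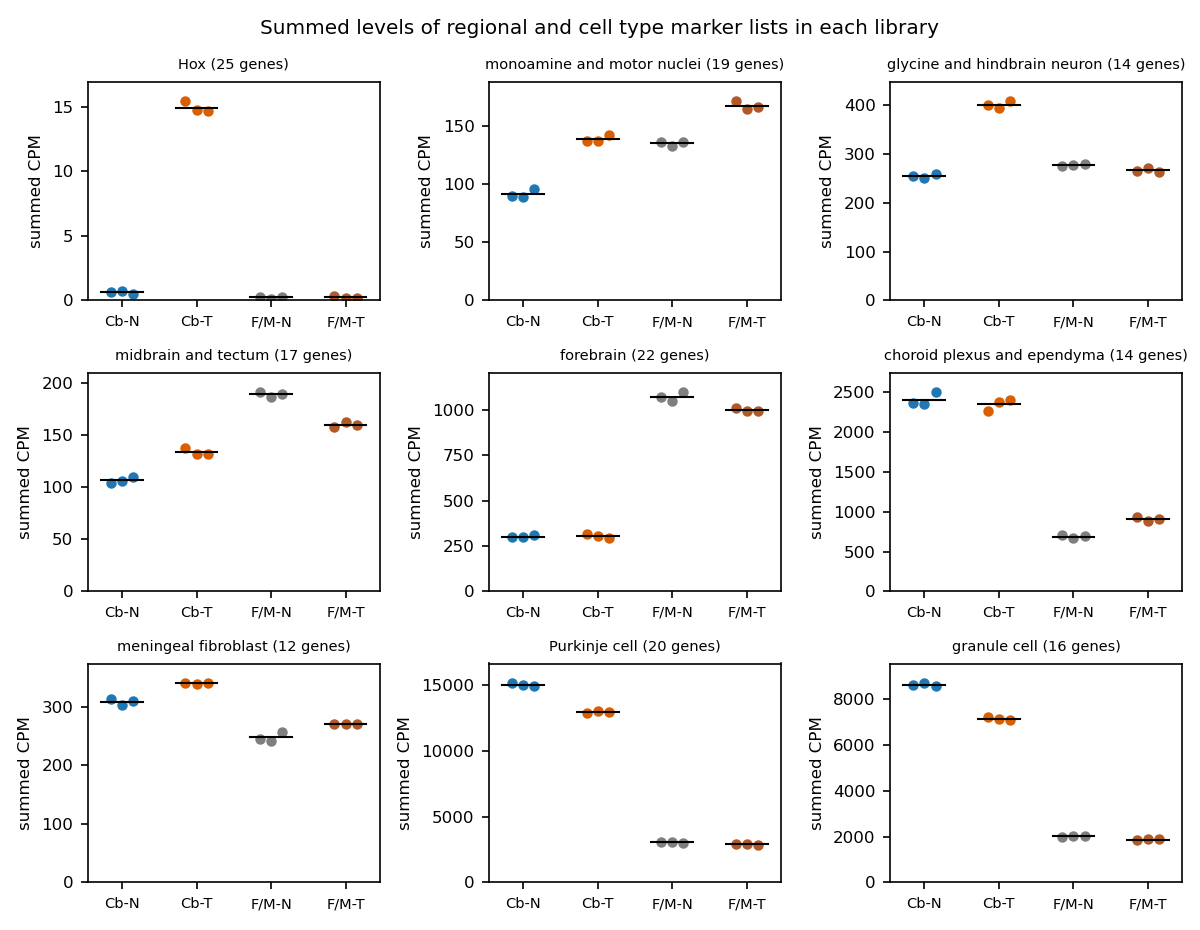
Summed CPM (y axis) of each list of marker genes in each of the 12 libraries, with 1 point per library and a line at the mean of 3. The Hox sum is near 0 in every group but Cb-T, whereas the choroid plexus sums of Cb-N and Cb-T overlap.

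Among DEG 4-fold or more higher in F/M-N, genes were named by the size of their increase, and only if the libraries of Cb-T and Cb-N did not overlap. First came *Tfap2d*, *Shox2*, *Crhbp*, *Serpina3n* and *Six3*. Cb-T carried all but *Serpina3n*. *Shox2*, a factor of thalamic and tectal neurons, had 0.355, 0.183 and 0.0928 CPM in Cb-N against 11.5, 8.86 and 10.6 CPM in Cb-T (l2fc 5.58, SE 0.221, edgeR adjusted p = 1.54e-24). *Crhbp*, which binds corticotropin-releasing hormone, had 0.0888, 0.0459 and 0.186 CPM in Cb-N against 3.92, 3.67 and 3.98 CPM in Cb-T (l2fc 5.12, SE 0.311, edgeR adjusted p = 4.73e-18). *Serpina3n*, a protease inhibitor of reactive astrocytes, had 3.596, 4.04 and 2.55 CPM in Cb-N against 65.4, 67.7 and 69.8 CPM in Cb-T (l2fc 4.33, SE 0.0752, edgeR adjusted p = 7.68e-38), above its level in F/M-N (20.2 CPM). The DEG with lower values in this class was *Fank1*, with 0.755, 1.19 and 0.603 CPM in Cb-N against 0.549, 0.564 and 0.456 CPM in Cb-T (l2fc -0.68, SE 0.328, edgeR adjusted p = 0.0787). It lies under the minimum level of 1 CPM for named genes and was singled out after its values were seen. The class had 0 such DEG without Cb-T2, under limma-voom, under calls by at least 2 tools and under FDR below 0.05. Without Cb-N1 or without Cb-N3 the class had 2, a count that does not show whether *Fank1* was among them.

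Families of neuronal genes were also split by level, and 60.0% of all tested genes of the 4-fold class were higher in Cb-T. Of 28 tested neuropeptides and peptide receptors, 20 were higher and 2 lower, and of the 19 in the 4-fold class 18 were higher, 8 of them carried by Cb-T. *Pdyn*, the precursor of dynorphins, had 0.577, 0.229 and 0.6498 CPM in Cb-N against 7.596, 7.25 and 7.96 CPM in Cb-T, and *Tac1*, the precursor of substance P, had 1.02, 1.101 and 0.835 CPM in Cb-N against 8.61, 8.5 and 7.88 CPM in Cb-T, so that the groups lay far apart. The members with lower values, *Vipr2* (l2fc -0.97) and *Crhr1* (-0.79), are receptors for vasoactive intestinal peptide and corticotropin-releasing hormone, and their WT level was higher in Cb than in F/M. Of 31 tested genes of GABA and glycine transmission, 10 were higher (2 carried by Cb-T), and 9 of these belonged to the 10 in the 4-fold class, such as the receptor subunit *Gabra5* (0.977, 1.101 and 0.928 CPM in Cb-N against 6.08, 5.88 and 7.17 CPM in Cb-T). At a similar level, 0 of 10 were higher by edgeR, DESeq2 or limma-voom, and at an unadjusted p below 0.05 edgeR placed 0 higher and 9 lower. *Gabrr2*, a rho subunit of GABA receptors, was the 1 lower DEG (l2fc -0.75), carried by Cb-N, with overlapping groups, and DESeq2 called 0 lower. Of 32 tested voltage-gated channels, 5 of 7 in the 4-fold class were higher, such as the sodium channel *Scn3a* (3.596, 3.17 and 3.62 CPM in Cb-N against 11.01, 10.6 and 10.4 CPM in Cb-T). Among 14 channels at a similar level, 0 were DEG by any of the 3 tools, although edgeR placed 13 lower and 1 higher at an unadjusted p below 0.05.

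*Tpp1* (ENSMUSG00000030894.5, chr7:105744811-105752235 of GRCm38) had 112, 114 and 112 CPM in Cb-N against 27.98, 31.1 and 30.1 CPM in Cb-T (l2fc -1.91, SE 0.03999, edgeR adjusted p = 5.72e-35). Every Cb-T library was far below every Cb-N library, 3.76-fold on average, as the genotype labels require. Counts per whole gene do not show which part of the transcript remained. In F/M, its l2fc was -1.94, and the difference between the tissues did not pass the edgeR interaction test (0.05 on the log2 scale, adjusted p = 0.669). Of 13 tested genes mutated in forms of NCL, *Tpp1* included, 7 passed FDR with higher and 2 with lower values, and 2 besides *Tpp1* also passed the fold limit, both with higher values. *Ctsd*, the aspartic protease cathepsin D, had 155, 159 and 159.6 CPM in Cb-N against 416, 433 and 436 CPM in Cb-T (l2fc 1.45, SE 0.0262, edgeR adjusted p = 2.36e-37), and *Grn*, which encodes progranulin, had 44.3, 46.9 and 46.6 CPM in Cb-N against 81.6, 87.7 and 86.6 CPM in Cb-T (l2fc 0.91, SE 0.0395, edgeR adjusted p = 4.24e-23). Their libraries did not overlap. *Cln3*, *Cln6*, *Cln8*, *Ppt1* and *Mfsd8*, which encode proteins of the lysosome or of the endoplasmic reticulum, had an l2fc between -0.19 and 0.32 and were no DEG.

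The wider lysosomal set shifted upward. Of 45 tested lysosomal hydrolases and activators, 13 rose and 0 fell, 10 of 37 at a similar level rose, and the median l2fc was 0.36 against 0.01 over all tested genes. Including smaller changes, 37 of the 45 passed FDR with higher values and 1 with lower values, against 29.8% and 27.9% of all tested genes, and DESeq2 and limma-voom also called 0 lower. *Ctsh*, a cathepsin of microglia, had 7.502, 7.71 and 8.03 CPM in Cb-N against 15.8, 17.9 and 18.3 CPM in Cb-T (l2fc 1.18, SE 0.0827, edgeR adjusted p = 5.41e-16), with separate groups. *Npc2* (l2fc 0.81), which carries cholesterol in the lysosome, and *Man2b1* (0.81), an alpha-mannosidase, rose as well. Of 32 lysosomal membrane proteins and V-ATPase subunits, 4 rose, with a median l2fc of 0.15. These were *Cd68* (2.75, 2.84 and 2.27 CPM in Cb-N against 20.9, 24.3 and 23.05 CPM in Cb-T) and *Laptm5* (l2fc 1.88) of phagocytes, the tetraspanin *Cd63* (0.98), and *Atp6v0d2*, a macrophage subunit with 1 count in Cb-N and 49 in Cb-T, a ratio of 44.4 (95% counting interval 7.61 to 1790). Ubiquitous subunits such as *Atp6v1a* (0.04) and *Atp6v0c* (-0.28) did not pass the fold limit.

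Of 28 autophagy genes 9 passed FDR with higher and 6 with lower values (29.8% and 27.9% of all tested genes), and 2 were DEG with higher values (7.14%, against 8.54% of all), *Atg9b*, of the 4-fold class, and *Sqstm1*, with a median l2fc of -0.002. *Sqstm1*, the autophagy receptor p62, had 269, 264 and 278 CPM in Cb-N against 404, 408 and 396 CPM in Cb-T (l2fc 0.59, SE 0.0247, edgeR adjusted p = 1.26e-23), with groups apart, but its call was lost under RLE size factors (l2fc 0.58), under DESeq2 (0.58), in the fit of all 12 libraries (0.57) and without Cb-N1 (0.58), Cb-N2 (0.57), Cb-T1 (0.58) or Cb-T2 (0.58). *Tfeb* (-0.17) and *Tfe3* (-0.06), which drive lysosomal genes, were no DEG. None of the 3 genes for subunit c of the ATP synthase was a DEG by edgeR, DESeq2 or limma-voom, with 1 higher and 1 lower at an unadjusted p below 0.05. *Atp5g1* had 23.8, 20.3 and 21.8 CPM in Cb-N against 17.2, 16.4 and 17.7 CPM in Cb-T (l2fc -0.35), with Cb-T below Cb-N, while *Atp5g2* (0.00) and *Atp5g3* (0.12) lay near the level of WT.

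Among DEG at a similar level in F/M-N, genes were likewise named only if the libraries of Cb-T and Cb-N did not overlap. Those with the largest increase were, in order, *Cst7*, *Sprr1a*, *Serpinf2*, *Ccl3*, *Ly9*, *Lilrb4a*, *Cd22*, *Gpnmb*, *Lyz2* and *Gfap*. Of these, Cb-T carried all but *Gpnmb*, *Lyz2* and *Gfap*, and for the other 7 the filter favored the direction and the place in this order. *Cst7* (chr2:150570415-150578944) encodes cystatin F, an inhibitor of lysosomal cathepsins made by activated microglia, and had 0.0888, 0.138 and 0.232 CPM in Cb-N against 8.61, 10.2 and 10.4 CPM in Cb-T (l2fc 5.97, SE 0.227, edgeR adjusted p = 3.44e-25). *Gpnmb* (chr6:49036546-49070929), a glycoprotein of phagocytes under lysosomal stress, had 3.33, 2.84 and 2.88 CPM in Cb-N against 31.4, 34.9 and 30.4 CPM in Cb-T (l2fc 3.43, SE 0.0897, edgeR adjusted p = 3.08e-31). *Lyz2* (chr10:117277331-117282321), the lysozyme of macrophages, had 6.66, 5.46 and 6.03 CPM in Cb-N against 47.5, 47.2 and 48.01 CPM in Cb-T (l2fc 2.99, SE 0.0665, edgeR adjusted p = 6.38e-34). *Lilrb4a*, an inhibitory receptor of myeloid cells, had 0.3995, 0.505 and 0.464 CPM in Cb-N against 7.01, 6.77 and 5.43 CPM in Cb-T (l2fc 3.81, SE 0.203, edgeR adjusted p = 5.08e-20). *Ccl3*, a chemokine that attracts myeloid cells and lymphocytes, had 0.0444, 0.138 and 0.279 CPM in Cb-N against 2.79, 2.66 and 2.24 CPM in Cb-T (l2fc 4.04, SE 0.336, edgeR adjusted p = 9.21e-14). *Cd22*, a sialic acid receptor of B cells that also restrains phagocytosis by microglia, had 0.222, 0.321 and 0.0928 CPM in Cb-N against 2.83, 1.93 and 2.57 CPM in Cb-T (l2fc 3.50, SE 0.3198, edgeR adjusted p = 1.44e-12). *Ly9*, an adhesion receptor of leukocytes, had 0.178, 0.321 and 0.139 CPM in Cb-N against 3.46, 3.46 and 3.27 CPM in Cb-T (l2fc 3.98, SE 0.278, edgeR adjusted p = 4.16e-16). In Cb-N, *Ccl3*, *Cd22* and *Ly9* stood near the floor, and every Cb-T library was far above it. *Serpinf2*, which encodes the plasmin inhibitor alpha-2-antiplasmin, had 0.0444, 0.229 and 0.139 CPM in Cb-N against 2.49, 2.34 and 2.16 CPM in Cb-T (l2fc 4.05, SE 0.346, edgeR adjusted p = 2.10e-13). *Sprr1a*, a small proline-rich protein that injured neurons make, had 3 counts in all of Cb-N and 156 in Cb-T, a ratio of 47.2 (95% counting interval 15.8 to 231). *Rgs1*, a regulator of G protein signalling in leukocytes, had no count in Cb-N and 0.717, 0.645 and 0.871 CPM in Cb-T, at least 5.44-fold higher than the mean floor of a Cb-N library, and was singled out after its values were seen.

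**Figure D3:**
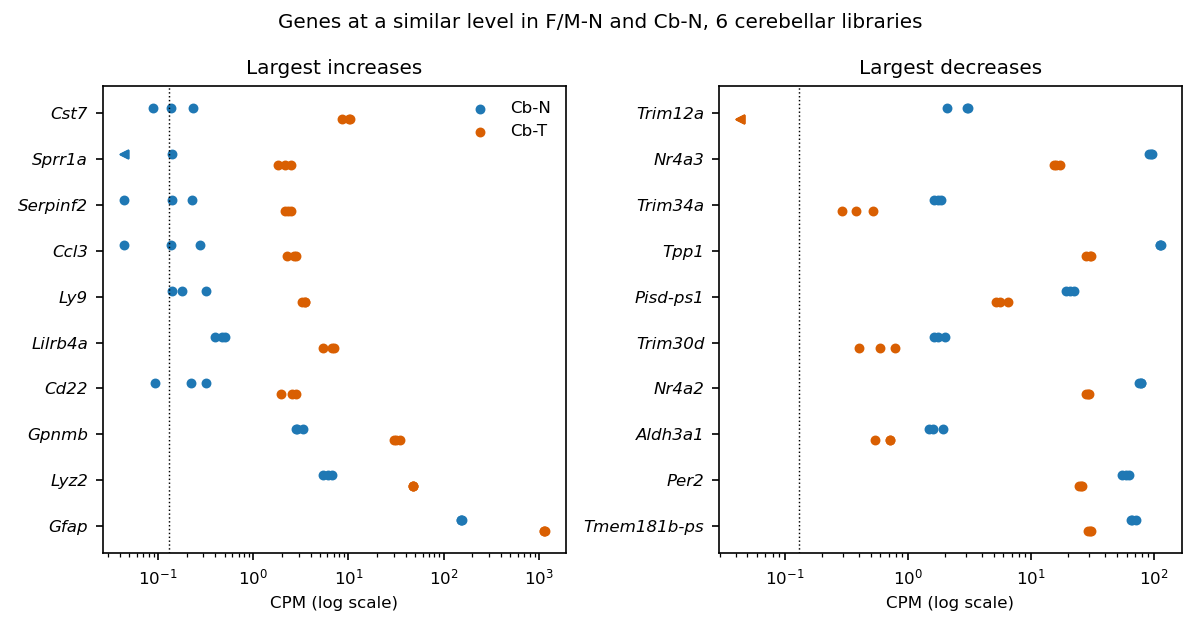
CPM (x axis, log scale) of the genes with the largest increase (left) and the largest decrease (right) among those at a similar level in F/M-N and Cb-N, with 1 point per cerebellar library. Triangles at the left edge stand for libraries without a count and the dotted line for the mean floor of 3 counts; the rule of choice took only DEG whose Cb-N and Cb-T libraries are apart.

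Microglia take on a disease-associated state around dying neurons and storage material, in which the receptor TREM2 and its adaptor TYROBP drive lipid uptake and lysosomal genes. Of 32 tested genes of this state, 28 rose and 0 fell (DESeq2 and limma-voom 28 and 0, edgeR 32 and 0 at an unadjusted p below 0.05), 8 of the 28 carried by Cb-T, and 15 of 18 at a similar level rose, 3 of them carried. Their median l2fc was 1.89, and their sum was 2819, 2833 and 2959 CPM in Cb-N against 4999, 5045 and 4994 CPM in Cb-T. *Itgax*, the integrin CD11c, had 0.266, 0.321 and 0.5105 CPM in Cb-N against 11.3, 11.7 and 11.6 CPM in Cb-T (l2fc 4.98, SE 0.176, edgeR adjusted p = 2.32e-26), and *Clec7a*, the beta-glucan receptor dectin-1, had 0.444, 0.275 and 0.279 CPM in Cb-N against 14.4, 14.8 and 14.3 CPM in Cb-T (l2fc 5.43, SE 0.167, edgeR adjusted p = 1.25e-28). Both had a lower WT level in F/M than in Cb, and their groups in Cb did not overlap. *Trem2* had 3.33, 3.44 and 3.43 CPM in Cb-N against 21.1, 21.9 and 21.6 CPM in Cb-T, and *Apoe*, the lipid carrier of microglia and astrocytes, had 798, 820.3 and 861 CPM in Cb-N against 1643, 1602 and 1552 CPM in Cb-T. The level of *Apoe* per length was the highest of the list, at 748 CPM per kb in Cb-T.

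Genes of resting microglia were higher too. Of 18 tested, 14 rose and 0 fell (DESeq2 and limma-voom 14 and 0, edgeR 17 and 0 at an unadjusted p below 0.05), with a median l2fc of 1.33. Their sum was 199.6, 201 and 209 CPM in Cb-N against 579, 584 and 593 CPM in Cb-T, against 578 CPM in F/M-N, and 13 of those that rose belonged to the class 1.5- to 4-fold higher in F/M-N. *Cx3cr1*, the fractalkine receptor, had 14.8, 15.7 and 13.6 CPM in Cb-N against 41.4, 42.5 and 41.1 CPM in Cb-T (l2fc 1.52, SE 0.0567, edgeR adjusted p = 1.74e-25). *P2ry12*, the purine receptor that guides resting microglia, had 11.2, 10.96 and 12.4 CPM in Cb-N against 15.7, 16.4 and 16.5 CPM in Cb-T (l2fc 0.51), and *Tmem119* had 5.504, 5.55 and 6.82 CPM in Cb-N against 6.88, 7.53 and 7.59 CPM in Cb-T (l2fc 0.32). Both were higher in every Cb-T library but stayed below the fold limit. More microglia and more RNA per microglial cell cannot be told apart in bulk RNA, and neither can fewer cells of a type and less RNA per cell. The Hox, monoamine and midbrain sums given above rose in the same libraries, and their part in the levels of microglial genes was not tested.

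Receptors and signals of myeloid cells moved with these genes. Of 19 tested Fc receptors and members of signalling through immunoreceptor motifs, 18 rose (5 carried by Cb-T), 13 of them 1.5- to 4-fold higher in F/M-N, with a median l2fc of 1.80, among them *Tyrobp* (3.68, 3.76 and 4.36 CPM in Cb-N against 28.4, 31.02 and 30.01 CPM in Cb-T) and the kinase *Syk* (l2fc 0.88), while the kinase *Lyn* (-0.20) did not pass the fold limit. All 7 tested genes of the phagocyte NADPH oxidase rose, 1 of them carried by Cb-T. They included the catalytic subunit *Cybb* at a similar level in F/M-N, with 1.15, 1.61 and 1.39 CPM in Cb-N against 6.88, 6.37 and 5.64 CPM in Cb-T (l2fc 2.20, SE 0.157, edgeR adjusted p = 9.29e-16). Cb-T lay above Cb-N throughout. Of 14 Toll-like receptors and partners, 9 rose (3 carried by Cb-T), 2 of 6 at a similar level, led by *Tlr2* for bacterial lipopeptides (1.24, 1.06 and 1.25 CPM in Cb-N against 7.64, 7.05 and 7.503 CPM in Cb-T, l2fc 2.65). *Tlr4* (0.42) and the adaptor *Myd88* (0.18) were no DEG. Of 15 inflammasome genes, 11 rose and 1 fell (DESeq2 9 and 1, limma-voom 10 and 1), 5 of the 11 carried by Cb-T, and at a similar level 4 of 6 rose (DESeq2 2, limma-voom 3). The sensor *Nlrp3* (l2fc 1.31), the adaptor *Pycard* (1.43) and the effector *Gsdmd* (0.59, close to the fold limit) rose, *Casp1* (0.29) and *Il18* (0.28) were no DEG, and *Nlrp10* (-0.68) fell. *Il1b* was too low to be tested.

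Of 25 tested complement genes, 12 rose (2 carried by Cb-T) and 2 fell (1 carried by Cb-N). At a similar level 1 of 6 rose (DESeq2 0), with a median l2fc of 0.06, and 9 of the 12 were 1.5- to 4-fold higher in F/M-N. The starting component *C1qa* had 12.8, 12.9 and 14.7 CPM in Cb-N against 86.8, 87.2 and 82.6 CPM in Cb-T (l2fc 2.68, SE 0.0511, edgeR adjusted p = 1.68e-36), the central component *C3* had 1.998, 2.11 and 2.04 CPM in Cb-N against 21.6, 25.3 and 23.3 CPM in Cb-T (l2fc 3.52, SE 0.104, edgeR adjusted p = 3.04e-29), and *C4b* had 10.9, 11.1 and 13.2 CPM in Cb-N against 94.8, 102 and 105 CPM in Cb-T (l2fc 3.12, SE 0.05496, edgeR adjusted p = 1.14e-37). Their groups were far apart. Reads of *C4b* and the near-identical *C4a* (l2fc -0.57) may be shared, so the division between them is uncertain. Receptors rose too, such as *C3ar1* (l2fc 2.81) and the integrin chain *Itgb2* (2.60). Of the regulators, *Serping1* (0.16) and *Cd55* (-0.05) were no DEG, and properdin, *Cfp*, fell (26.2, 25.7 and 25.2 CPM in Cb-N against 15.8, 17.5 and 14.6 CPM in Cb-T), as did the lectin pathway protease *Masp2* (l2fc -0.88). Of 14 chemokines 9 rose, 6 of them carried by Cb-T, and 2 of 3 at a similar level, 1 of them carried, with *Cxcl10* at 0.0888, 0.459 and 0.371 CPM in Cb-N against 1.98, 2.498 and 2.49 CPM in Cb-T, and *Cxcl9* with 1 count in Cb-N and 50 in Cb-T, a ratio of 45.3 (95% counting interval 7.77 to 1826). Of 16 cytokines and growth signals 8 rose (3 carried by Cb-T), 3 of 8 at a similar level. Among the 8 were *Il1a* (l2fc 2.77), of the 4-fold class, and the microglial growth factors *Csf1* (0.92) and *Il34* (0.62). In contrast, *Bdnf* (-0.55), a neurotrophin, did not pass the fold limit. *Tnfsf8* had 3 counts in Cb-N and 46 in Cb-T, a ratio of 13.9 (4.47 to 69.9).

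Markers of other blood cells were mostly too low to be tested. Of 20 markers of lymphocytes and neutrophils, 3 had enough counts to be tested, *Lck*, *S100a8* and *S100a9*, and *Lck* rose (l2fc 1.90), a gene 4-fold or more higher in F/M-N. Of the 17 untested members 14 had a higher and 3 a lower mean in Cb-T, with 1 count in Cb-N and 7 in Cb-T for *Cd3e*, which defines T cells, 3 and 28 for *Cd4*, 1 and 12 for *Nkg7* of cytotoxic cells, and 4 and 2 for *Ly6g* of neutrophils. No test was made at such counts. As with *Lck*, the level of *Cd4* was higher in F/M-N (7.51, 8.74 and 7.37 CPM) than in Cb-N. Of 9 tested markers of border macrophages and monocytes, 4 rose (DESeq2 3; 2 carried by Cb-T), with a sum of 21.8, 21.01 and 19.8 CPM in Cb-N against 30.05, 28.97 and 28.4 CPM in Cb-T. *Ms4a7*, a marker of such macrophages that reactive microglia also express, rose by an l2fc of 1.87 at a similar level in F/M-N, whereas *Lyve1* (-0.37), *Cd163* (-0.16) and *Ccr2* (0.15) were no DEG. The call of *F13a1* (l2fc 0.59), another of the 4, was lost under 6 alternatives, RLE size factors and DESeq2 among them, and its values ranged from 0.36 to 0.77. Of 20 tested proliferation genes, 3 rose (15%), *Mki67* (0.666, 0.596 and 0.743 CPM in Cb-N against 1.77, 1.61 and 1.91 CPM in Cb-T), *Top2a* (l2fc 1.02) and *Cdk1* (0.85), and *Ccnb2* (-0.76) fell. Over all tested genes 8.54% were higher and 2.66% lower. Of the 3 that rose, 2 belonged to the class 1.5- to 4-fold higher in F/M-N, where 19.4% of all tested genes were higher. *Mcm3*, a helicase subunit, was no DEG (l2fc 0.58) but gained a call in 7 of 13 alternatives, with values from 0.42 to 0.73. The median of this list was 0.11.

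Interferons act on all brain cells through JAK kinases and switch on antiviral genes. Of 43 tested interferon-stimulated genes, 29 rose and 0 fell (DESeq2 27 and 0, limma-voom 30 and 0, edgeR 37 and 2 at an unadjusted p below 0.05), 4 of the 29 carried by Cb-T, and 23 of 30 at a similar level rose, 2 of them carried. The median l2fc was 0.74, and the sum was 364, 358 and 354 CPM in Cb-N against 462, 466 and 474 CPM in Cb-T. *Isg15*, a ubiquitin-like modifier, had 0.7102, 0.688 and 0.882 CPM in Cb-N against 2.28, 2.498 and 2.11 CPM in Cb-T (l2fc 1.60, SE 0.227, edgeR adjusted p = 9.09e-08). *Ifit1*, which binds viral RNA, had 3.77, 2.48 and 2.69 CPM in Cb-N against 7.81, 7.82 and 7.503 CPM in Cb-T (l2fc 1.38, SE 0.128, edgeR adjusted p = 2.34e-12), and *Oasl2*, of the oligoadenylate synthetase family, had 4.39, 4.68 and 3.67 CPM in Cb-N against 9.495, 9.43 and 12.4 CPM in Cb-T (l2fc 1.31, SE 0.116, edgeR adjusted p = 6.90e-13). *Zbp1*, a sensor of Z-form nucleic acids, had 0.0444, 0.275 and 0.279 CPM in Cb-N against 0.971, 0.564 and 0.788 CPM in Cb-T (l2fc 1.95, SE 0.438, edgeR adjusted p = 2.26e-04). The groups of these genes did not overlap. The transcription factors *Stat2* (-0.12) and *Irf9* (-0.10) were no DEG, while *Irf7* (0.96) and *Irf1* (0.70) rose.

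Presentation of antigens moved with this response. Of 22 tested genes of MHC class I presentation 11 rose, 8 of 15 at a similar level, and the median l2fc was 0.56. *B2m*, the light chain of class I molecules, had 68.7, 67.9 and 65.9 CPM in Cb-N against 138, 143 and 147 CPM in Cb-T (l2fc 1.09, SE 0.0336, edgeR adjusted p = 1.17e-28), and *H2-K1*, a heavy chain, had 20.1, 22.3 and 22.1 CPM in Cb-N against 38.6, 39.1 and 41.95 CPM in Cb-T (l2fc 0.91, SE 0.0538, edgeR adjusted p = 2.26e-18). The chaperones *Calr* (-0.10) and *Pdia3* (0.07), which serve all cells, were no DEG. Of 8 tested genes of class II presentation 7 rose (1 carried by Cb-T), such as the invariant chain *Cd74*, with 3.77, 4.36 and 4.55 CPM in Cb-N against 7.85, 7.65 and 8.21 CPM in Cb-T (l2fc 0.92, SE 0.111, edgeR adjusted p = 2.78e-09). The call of *H2-Aa* (l2fc 0.64) was lost without Cb-N3 (0.51) and without Cb-T1 (0.57). Cb-T libraries were above Cb-N libraries for *B2m*, *H2-K1* and *Cd74*. The heavy chain genes of the H2 family are alike in sequence, and the division of reads among them is uncertain.

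Promoters of the interferon-stimulated genes, of which 29 of 43 tested rose, were searched for the interferon-stimulated response element GAAANNGAAA on both strands. The windows ran from 250 bases before to 50 bases after the transcription start (RefSeq, GRCm38.p6). Of 45 listed genes 32 had a promoter in the table, and 17 of their 36 promoters (47.2%) held a match, against 3.44% of all 32851 promoters. It was present in 11 of 20 DEG and in 6 of 12 other members with a promoter, so the match did not separate them. The windows of *Isg15* (chr4:156200769-156201068, minus strand), *Ifit1* (chr19:34640639-34640938, plus strand) and *Gbp2* (chr3:142620413-142620712, plus strand) are shown because these genes rose and hold 3, 2 and 1 matches. Capitals mark the matches, those of *Ifit1* and *Gbp2* being read on the opposite strand, and the 3 matches of *Isg15* overlap. A match describes the letters and is no measured binding site.
Isg15: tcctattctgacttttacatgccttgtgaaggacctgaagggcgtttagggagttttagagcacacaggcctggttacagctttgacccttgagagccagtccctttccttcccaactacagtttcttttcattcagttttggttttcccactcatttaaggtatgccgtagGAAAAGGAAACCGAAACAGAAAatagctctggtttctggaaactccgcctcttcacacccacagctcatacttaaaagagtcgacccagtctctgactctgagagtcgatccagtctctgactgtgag
Ifit1: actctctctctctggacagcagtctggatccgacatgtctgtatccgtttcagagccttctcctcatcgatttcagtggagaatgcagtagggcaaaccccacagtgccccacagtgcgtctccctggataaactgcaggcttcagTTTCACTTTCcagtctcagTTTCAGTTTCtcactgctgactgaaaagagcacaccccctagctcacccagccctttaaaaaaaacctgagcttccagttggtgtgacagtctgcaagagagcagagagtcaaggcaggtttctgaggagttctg
Gbp2: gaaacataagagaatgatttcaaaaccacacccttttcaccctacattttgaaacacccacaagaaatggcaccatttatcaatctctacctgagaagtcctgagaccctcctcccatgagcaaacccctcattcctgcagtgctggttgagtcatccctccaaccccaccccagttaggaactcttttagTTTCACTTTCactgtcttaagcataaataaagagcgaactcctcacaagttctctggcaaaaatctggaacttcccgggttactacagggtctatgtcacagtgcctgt

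Astrocytes respond to injury with intermediate filaments and secreted factors. *Gfap* (chr11:102887336-102900912), their intermediate filament, had 155, 152 and 152 CPM in Cb-N against 1143, 1146 and 1138 CPM in Cb-T (l2fc 2.91, SE 0.0242, edgeR adjusted p = 1.38e-50), with all Cb-T libraries far above Cb-N. Of 13 tested genes shared by states of reactive astrocytes 10 rose (3 carried by Cb-T), with a median l2fc of 1.80, including the protease inhibitor *Timp1* (0.266, 0.734 and 0.371 CPM in Cb-N against 4.56, 4.07 and 4.44 CPM in Cb-T) and the iron-binding lipocalin *Lcn2* (0.533, 0.413 and 0.139 CPM in Cb-N against 1.98, 2.14 and 2.28 CPM in Cb-T). *Vim* (0.18), a second filament of reactive astrocytes, was no DEG. Of genes assigned to the neuroinflammatory state 8 of 13 rose (median 0.97). Of those assigned to the ischemic state 6 of 11 rose, 2 of them carried by Cb-T, such as *Cd109* (l2fc 1.68) and *Ptx3* (1.70). The median of the latter list was 0.63, and 0.34 for the 8 members with a mean count of at least 50. Of 20 tested genes of resting astrocytes 2 rose, the water channel *Aqp4*, with 529, 535 and 525 CPM in Cb-N against 925, 907 and 894 CPM in Cb-T (l2fc 0.79, SE 0.02199, edgeR adjusted p = 2.86e-30), and the GABA transporter *Slc6a11* (69.8, 75.2 and 76.9 CPM in Cb-N against 212, 203 and 204 CPM in Cb-T), which was 4-fold or more higher in F/M-N. At a similar level 0 of 10 were DEG by any of the 3 tools, although all 10 were higher at an unadjusted p below 0.05. *Aldh1l1*, a marker of all astrocytes, had 74.4, 74.1 and 71.9 CPM in Cb-N against 85.8, 88.99 and 89.9 CPM in Cb-T (l2fc 0.28), a small step with separate groups. Of 9 genes of Bergmann glia 0 rose (DESeq2 and limma-voom 0, edgeR 3 higher and 5 lower at an unadjusted p below 0.05) and 1 fell, *Etv5* (l2fc -0.62), a factor downstream of fibroblast growth factor whose call was lost without Cb-T3 (-0.57).

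Neurons of the cerebellar cortex kept their markers at slightly lower levels. Of 20 Purkinje cell markers and of 16 granule cell markers 0 were DEG by edgeR, DESeq2 or limma-voom. At an unadjusted p below 0.05, 17 Purkinje cell markers were lower and 2 higher, and 14 granule cell markers were lower and 0 higher, against 51.4% lower and 7.54% higher in the class lower in F/M-N, to which most of them belong. The Purkinje cell sum was 15157, 15070.4 and 14934 CPM in Cb-N against 12904, 13056 and 12962 CPM in Cb-T, or 0.862 times Cb-N, with a median l2fc of -0.22. Its most abundant member per length was *Aldoc* (591 CPM per kb in Cb-T), and how much of the sum comes from other cells was not tested. The granule cell sum was 8610.1, 8697 and 8578 CPM in Cb-N against 7235, 7136 and 7077 CPM in Cb-T, or 0.829 times Cb-N, with a median of -0.31. For 18 of the 20 and 15 of the 16 genes the WT level was more than 1.5-fold higher in Cb than in F/M, and the outside markers given above rose in the same libraries. A smaller share of cerebellar RNA in Cb-T, fewer neurons and less RNA per neuron cannot be told apart here. *Calb1*, a calcium buffer of Purkinje cells, had 1066, 1079 and 1107 CPM in Cb-N against 894, 907 and 918 CPM in Cb-T, and *Pcp2*, a modulator of G proteins in the same cells, had 249, 243 and 250.4 CPM in Cb-N against 232, 239 and 237 CPM in Cb-T (l2fc -0.24 and -0.06). *Gabra6*, a GABA receptor subunit of granule cells, had 855, 854 and 845 CPM in Cb-N against 654, 637 and 646 CPM in Cb-T, and their transcription factor *Zic1* had 975, 1008 and 1006 CPM in Cb-N against 719, 695 and 683 CPM in Cb-T (l2fc -0.39 and -0.50). All 4 were lower in each Cb-T library than in any Cb-N library.

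Unipolar brush cells are excitatory interneurons of the vestibular lobules, and no list of their markers was fixed. *Eomes*, the transcription factor that defines them, had 53.3, 52.2 and 54.2 CPM in Cb-N against 10.97, 11.8 and 11.6 CPM in Cb-T (l2fc -2.20, SE 0.0548, edgeR adjusted p = 4.05e-32), and *Grm2*, a glutamate receptor of these cells and of Golgi cells, had 22.1, 22.9 and 22.05 CPM in Cb-N against 10.6, 9.99 and 9.91 CPM in Cb-T (l2fc -1.12, SE 0.0702, edgeR adjusted p = 1.18e-17). The groups of both genes were far apart. *Calb2*, which brush cells share with granule cells, had 358, 353 and 369 CPM in Cb-N against 369, 362 and 370.5 CPM in Cb-T (l2fc 0.04), with overlapping groups. In the list of cerebellar interneurons 2 of 12 rose, *Sst* and *Npy* of the 4-fold class, and 3 fell, *Eomes*, *Grm2* and *Tfap2b* (l2fc -0.61), a factor of inhibitory interneurons, with a median l2fc of -0.15. Of 37 tested glutamate receptors and transporters 2 rose (5.41%), *Slc17a6* and *Grm5* of the 4-fold class, and 2 fell, *Grm2* and *Homer1*. Over all tested genes 8.54% were higher and 2.66% lower, and in the 4-fold class 60.0% were higher. The scaffold *Homer1* had 69.6, 68.6 and 63.8 CPM in Cb-N against 43.3, 46.3 and 41.6 CPM in Cb-T (l2fc -0.61), and its call was lost without Cb-T3 (-0.57). The median of this list was -0.17, and the scaffold *Shank1* had 343, 349.6 and 333 CPM in Cb-N against 251, 239 and 222 CPM in Cb-T, with a decrease below the fold limit (l2fc -0.51).

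Genes that respond to neuronal activity changed in both directions. *Nr4a3* (chr4:48045153-48086447), an orphan nuclear receptor induced by activity, had 91.3, 96.2 and 93.9 CPM in Cb-N against 16.1, 17.3 and 15.3 CPM in Cb-T (l2fc -2.51, SE 0.0472, edgeR adjusted p = 1.09e-36), and its relative *Nr4a2* (chr2:57106830-57124003) had 75.8, 77.9 and 78.1 CPM in Cb-N against 29.5, 29.4 and 28.4 CPM in Cb-T (l2fc -1.39, SE 0.0421, edgeR adjusted p = 6.52e-29). Both were lower in every Cb-T library, by 5.71-fold and 2.63-fold. *Fosl2*, a partner of JUN proteins, had 44.1, 41.6 and 42.6 CPM in Cb-N against 15.2, 16.1 and 16.5 CPM in Cb-T (l2fc -1.41, SE 0.0543, edgeR adjusted p = 5.13e-25), and *Fosb* fell too (l2fc -0.59). Of 28 tested immediate early genes 5 fell and 3 rose, and those that rose, *Egr2* (0.0888, 0.0918 and 0.279 CPM in Cb-N against 1.097, 0.685 and 0.829 CPM in Cb-T), *Egr3* (l2fc 1.09) and *Nptx2* (1.73), were 3 of the 10 that were 4-fold or more higher in F/M-N, a class in which 60.0% of all tested genes rose. *Fosl2*, *Fosb* and *Homer1*, which fell, were 1.5- to 4-fold higher in F/M-N. Of 9 at a similar level 0 rose (DESeq2 and limma-voom 0, edgeR 1 higher and 6 lower at an unadjusted p below 0.05) and 2 fell, *Nr4a2* and *Nr4a3*. *Fos* had 90.1, 88.8 and 90.6 CPM in Cb-N against 77.1, 77.4 and 77.5 CPM in Cb-T (l2fc -0.20), lower in each Cb-T library but below the fold limit, *Npas4* (-0.12) had overlapping groups, and *Nr4a1* had an l2fc of -0.48. The cyclic AMP response element TGACGTCA was found in 3 of 27 promoters of 20 listed genes (11.1%), against 1.79% of all promoters, and in 0 of 6 DEG with a promoter.

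Of 22 tested genes of the circadian clock 0 rose and 2 fell (DESeq2 and limma-voom 0 and 2, edgeR 6 and 14 at an unadjusted p below 0.05), with a median l2fc of -0.14. The repressors *Per2* (chr1:91415982-91459324) and *Per1* had 63.4, 59.04 and 55.5 CPM in Cb-N against 25.5, 25.9 and 24.8 CPM in Cb-T (l2fc -1.21, SE 0.04895, edgeR adjusted p = 3.07e-24) and 139, 139 and 133 CPM in Cb-N against 70.8, 74.1 and 71.2 CPM in Cb-T (l2fc -0.92, SE 0.0327, edgeR adjusted p = 3.51e-26), so that all Cb-T libraries were below Cb-N. The activators *Arntl* (-0.10) and *Clock* (-0.14), the other repressors *Cry1* (-0.29), *Cry2* (-0.20) and *Per3* (-0.25), and the output gene *Dbp* (0.15) were no DEG. The study's methods give no time of day at which tissue was taken. Its part in the levels of clock genes and of the activity-regulated genes above was not tested. The E-box CACGTG, through which the activators act, was found on either strand in 6 of 27 promoters of 18 listed genes (22.2%) and in 7.15% of all promoters. The same letters stood in 30% of 40 promoters of lysosomal hydrolases and in 26.7% of 30 of lysosomal membrane proteins. The window of *Per1* (RefSeq, GRCm38.p6, chr11:69098699-69098998, plus strand) is shown as the promoter of a DEG of this list with a match, in capitals.
Per1: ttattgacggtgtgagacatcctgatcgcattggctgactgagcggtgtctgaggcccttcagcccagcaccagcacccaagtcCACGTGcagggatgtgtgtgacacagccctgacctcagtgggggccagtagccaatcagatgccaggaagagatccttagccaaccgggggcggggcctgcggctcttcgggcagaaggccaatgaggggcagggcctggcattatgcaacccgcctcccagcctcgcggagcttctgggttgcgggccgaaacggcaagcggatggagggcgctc

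Further decreases at a similar level include genes of uncertain counts. *Trim12a* (chr7:104299894-104315466) had 3.02, 3.12 and 2.09 CPM in Cb-N against 0, 0 and 0 CPM in Cb-T, at least 22.1-fold lower than in Cb-N when set against the mean floor of a Cb-T library. *Trim34a* had 1.78, 1.65 and 1.86 CPM in Cb-N against 0.3798, 0.524 and 0.2902 CPM in Cb-T (l2fc -2.11, SE 0.284, edgeR adjusted p = 2.92e-08) and *Trim30d* had 1.78, 1.65 and 1.996 CPM in Cb-N against 0.591, 0.403 and 0.788 CPM in Cb-T (l2fc -1.59, SE 0.263, edgeR adjusted p = 2.05e-06). These genes of antiviral TRIM proteins form a cluster of near-identical copies between 1237 and 1483 kb from *Tpp1* on chromosome 7, in which *Trim12c* (l2fc 0.71) and *Trim30a* (0.74) rose. *Trim34b* had no count in Cb-N and 0.802, 0.483 and 0.5804 CPM in Cb-T, at least 4.55-fold higher than the floor. How reads shared among copies were divided is not stated, so the direction of each copy is uncertain. *Pisd-ps1*, a pseudogene of a mitochondrial lipid enzyme, had 22.4, 20.8 and 19.4 CPM in Cb-N against 5.61, 6.53 and 5.22 CPM in Cb-T (l2fc -1.84, SE 0.0863, edgeR adjusted p = 6.49e-22), and *Tmem181b-ps*, also a pseudogene, had 71.1, 66.8 and 64.7 CPM in Cb-N against 29.1, 30.3 and 31.1 CPM in Cb-T (l2fc -1.15, SE 0.0451, edgeR adjusted p = 1.17e-24). Both have near-identical copies, so their counts are uncertain. *Aldh3a1*, an aldehyde dehydrogenase, had 1.95, 1.61 and 1.49 CPM in Cb-N against 0.717, 0.725 and 0.539 CPM in Cb-T (l2fc -1.33, SE 0.256, edgeR adjusted p = 2.64e-05). Decreases were named by the same rule as increases.

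Within 10 Mb of *Tpp1*, 170 tested genes had a position, and 20 (11.8%) were higher and 10 (5.88%), *Tpp1* included, lower in Cb-T. On the rest of chromosome 7, 8.18% of 1125 genes were higher and 3.56% lower, and on other chromosomes 8.63% and 2.43% of 14675. At a similar level, 11 (10%) and 6 (5.45%) of 110 genes near *Tpp1* were higher and lower, against 3.5% and 1.22% of 658 on the rest of the chromosome and 3.49% and 0.836% of 8736 elsewhere, with no test between regions. *Olfml1*, at 1815 kb from *Tpp1*, had 8.79, 9.36 and 9.33 CPM in Cb-N against 20.1, 20.8 and 21.1 CPM in Cb-T (l2fc 1.19), with separate groups. Genes close to a targeted locus can carry DNA of the stem cell strain, and this was not tested.

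Oligodendrocyte genes were slightly higher. Of 20 tested, 3 rose, and of the 15 at a similar level 0 were DEG by any of the 3 tools, although 13 were higher and 0 lower at an unadjusted p below 0.05. *Mbp*, myelin basic protein, had 1968, 1970.3 and 2006 CPM in Cb-N against 2786, 2759 and 2759.6 CPM in Cb-T (l2fc 0.50), above Cb-N in each library. The list's sum was 5364, 5351 and 5468 CPM in Cb-N against 7020.0, 6959 and 6997 CPM in Cb-T in the same libraries as the outside markers, whose part was not tested. Of 10 genes of oligodendrocyte precursors 4 rose, such as *C1ql1* (2.71, 2.799 and 1.903 CPM in Cb-N against 5.06, 6.204 and 5.26 CPM in Cb-T), while *Pdgfra* (0.50) was below the fold limit. *C1ql1* is also made by neurons of the inferior olive, whose climbing fibers reach Purkinje cells. The call of *Gpr17* (l2fc 0.65) was lost without Cb-N1 (0.56), and that of *Bcas1* (0.59) under RLE size factors, DESeq2 and 5 other alternatives, with values between 0.57 and 0.58.

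Vessels showed small steps. Of 18 tested endothelial and mural genes 0 were DEG by any of the 3 tools, with 11 higher and 2 lower at an unadjusted p below 0.05 (26.8% and 25.4% of all genes at a similar level, as 17 of these were) and a median l2fc of 0.15. *Cldn5*, of the tight junctions of brain endothelium, had the highest value (l2fc 0.50). Of 5 tested adhesion genes 1 rose, *Icam1*, on which leukocytes dock, with 1.95, 1.97 and 1.903 CPM in Cb-N against 3.503, 4.59 and 4.39 CPM in Cb-T (l2fc 1.11, SE 0.159, edgeR adjusted p = 1.11e-07), and the groups did not overlap. Of 15 matrix metalloproteinases and inhibitors 5 rose (2 carried by Cb-T), 2 of 6 at a similar level, among them *Mmp12* of macrophages with 2 counts in Cb-N and 213 in Cb-T, a ratio of 96.6 (95% counting interval 26.4 to 803), and *Mmp2* (0.90).

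Among stress and lipid genes, counts are set beside the 29.8% of all tested genes that passed FDR with higher and the 27.9% with lower values, and beside the 8.54% and 2.66% that were DEG. Of 14 tested targets of the oxidative stress factor NRF2 13 passed FDR with higher and 0 with lower values, and 3 were DEG (1 carried by Cb-T, DESeq2 2), led by heme oxygenase, *Hmox1* (3.33, 3.72 and 3.57 CPM in Cb-N against 8.23, 10.5 and 10.99 CPM in Cb-T, 2.83-fold), while *Nqo1* (0.34) and *Gclc* (0.04) were no DEG. Of 22 genes of the unfolded protein and integrated stress responses 9 passed FDR with higher and 9 with lower values, and 2 were DEG with higher values, the pseudokinase *Trib3* (0.488, 0.5505 and 0.371 CPM in Cb-N against 1.22, 0.846 and 1.16 CPM in Cb-T) and the injury-induced factor *Atf3* (2.26, 1.74 and 1.76 CPM in Cb-N against 6.204, 4.71 and 5.14 CPM in Cb-T), and the median was 0.02. The chaperone *Hspa5* (-0.25) and *Atf4* (0.02) were no DEG. Of 23 genes of cholesterol synthesis and uptake 0 were DEG by any of the 3 tools, with 14 higher and 2 lower at an unadjusted p below 0.05 and a median of 0.21. Of 18 genes of lipid efflux and storage 13 passed FDR with higher and 4 with lower values, and of these 5 and 1 were DEG. Lipoprotein lipase, *Lpl*, which disease-associated microglia express, had 1.24, 0.963 and 1.81 CPM in Cb-N against 21.9, 21.9 and 20.9 CPM in Cb-T, and cholesterol hydroxylase, *Ch25h*, rose too (l2fc 2.97). The transporter *Abca7* fell, from a mean of 102 ± 1.68 (SD, n = 3) to 61.2 ± 0.486 CPM, and its relative *Abca1* (0.18) was no DEG. Groups were apart for *Hmox1*, *Lpl* and *Abca7*.

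**Figure D4:**
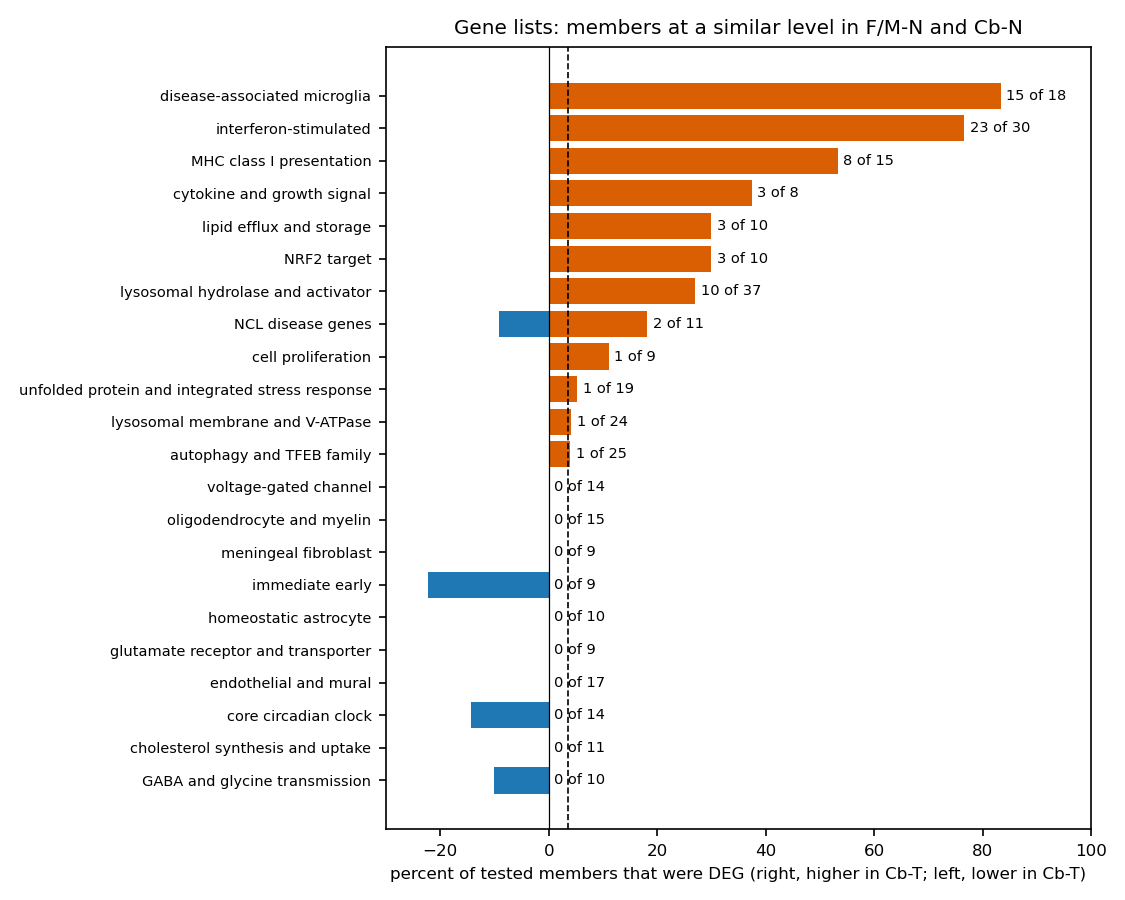
Percent of tested members (x axis) that were DEG with higher values (right) or lower values (left) in Cb-T, for every list with at least 8 tested members at a similar level in F/M-N and Cb-N. The dashed line marks the 3.57% of all genes of this class that were higher, and the disease-associated microglia (15 of 18) and interferon-stimulated (23 of 30) lists reach farthest beyond it.

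Cerebellar DEG were also looked up in F/M, where edgeR called 438 of 16665 tested genes higher (2.63%) and 143 lower (0.858%) in F/M-T against F/M-N. The Cb and F/M comparisons share no library, but F/M-N sets the level classes. Of 346 DEG at a similar level that were higher in Cb-T, 320 were tested in F/M and 121 (37.8% of 320, 27.6% of 438) were DEG in the same direction, with 1 in the opposite. Of 91 with lower values 86 were tested, and 28 (32.6% of 86, 19.6% of 143) were DEG in the same direction and 1 in the opposite. Of 485 DEG higher in Cb-T and 4-fold or more higher in F/M-N, all 485 were tested in F/M, and 11 (2.27% of 485, 2.51% of 438) were higher and 8 lower there. An edgeR interaction of tissue and genotype over 12 libraries, treated as independent, compared the changes of both tissues, and 1331 of 17482 genes (7.61%) passed FDR and the 1.5-fold limit. *Cst7* did not pass (l2fc 5.97 in Cb and 5.15 in F/M, adjusted p = 0.482), and neither did *Per2* (-1.21 and -0.71, difference -0.48 with adjusted p = 5.92e-06, below the fold limit). *Aldh3a1* (difference -0.54, adjusted p = 0.359) did not pass either.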

How the data were processed

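Per the labels and the study's methods, the authors aligned single-end reads of stranded poly(A) libraries to GRCm38 with STAR and counted them per gene with featureCounts, and they deposited raw counts, 1 table per library. Strand setting, handling of reads with several alignments and annotation release are not stated. The 6 cerebellar libraries were fitted here in R 4.3.3 with edgeR 4.0.16: filterByExpr (minimum count 10, minimum total 15), TMM, the quasi-likelihood test with genotype alone, and Benjamini-Hochberg adjustment over all tested genes. Standard errors (SE) are the l2fc over the root of the F statistic. CPM and level classes use TMM over all 12 libraries. The test was checked on simulated counts. Total counts per library ranged from 21428379 to 24458189.

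Alternatives were DESeq2 1.42.0, limma-voom (limma 3.58.1), calls by at least 2 of the 3 tools, RLE size factors, no count filter, a mean count of at least 50, FDR below 0.05, no fold limit, other class limits, classes from a held-out Cb-N library, a fit of all 12 libraries, a replicate block and leaving out each library. Members and lists were chosen with earlier results of these data known. Named genes were *Tpp1* and, among DEG with separate libraries, a mean of at least 1 CPM and a proper name, the 10 (similar level) or 5 (4-fold class) with the largest change in each direction, plus up to 4 members per list with the smallest p and members needed to state which did not change; other genes were named after their values were seen. Positions come from GENCODE by symbol, and 412 tested genes had no unique one. Counting intervals are exact (Clopper-Pearson) and cover counting error only.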

Additional observations from a re-analysis of the deposited data

Results flagged for a closer look

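Among the named genes at a similar level in F/M-N, 8 changed by a different amount in Cb than in F/M by the edgeR interaction test over 12 libraries (FDR below 0.1 with a difference of 1.5-fold or more). The log2 difference, Cb minus F/M, was 1.17 for *Gfap* (adjusted p = 2.44e-21), 1.62 for *Gpnmb* (5.19e-08), 1.00 for *Lyz2* (1.22e-07) and 0.97 for *Lilrb4a* (0.0720), all of which rose more in Cb. For *Sprr1a*, which was too low in F/M to be tested there alone, it was 4.77 (adjusted p = 3.78e-04), a fitted value that rests on few counts. It was -1.23 for *Nr4a3* (3.32e-15), -0.94 for *Nr4a2* (4.22e-14) and -0.85 for *Pisd-ps1* (1.13e-05), which fell more in Cb. The named genes were chosen for the largest changes in Cb among DEG with separate libraries, which favors a larger change in Cb than in F/M, so their number cannot be set against that of all genes. The Hox and midbrain marker sums were higher in Cb-T as well, and their part in these differences was not tested.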

How the results depend on the processing

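Counts of DEG higher in Cb-T (1399 in all, 346 at a similar level, 485 in the 4-fold class) and lower (436, 91 and 1) were compared over the alternatives. A mean count of at least 50, which tests fewer genes, gave 721, 194 and 236 higher and 176, 34 and 0 lower. Without a fold limit there were 4878 higher and 4564 lower genes in all, 2682 and 2519 at a similar level, and 25 lower in the 4-fold class. Class limits of 2-fold and 8-fold, which resize the classes, gave 158 lower at a similar level, and 314 higher and 0 lower in the upper class. Lower genes in the 4-fold class numbered 2 under RLE size factors, 2 without a count filter, 0 under limma-voom, under calls by at least 2 tools and under FDR below 0.05, 8 in the fit of all 12 libraries, and 3, 5 and 3 with classes from a held-out Cb-N library 1, 2 and 3; the cause was not tested. Other counts stayed within 1.5 times.

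Leaving out each library in turn gave 1396 to 1472 higher and 431 to 514 lower genes in all, 322 to 354 and 93 to 106 at a similar level, and 480 to 507 and 0 to 2 in the 4-fold class. With replicate numbers as a block, that is pairing Cb-N and Cb-T libraries of the same number, the counts were 1400, 351 and 484 higher and 434, 91 and 1 lower. The labels state no such pairing, and deviations from the group means correlated across genes at -0.0327, 0.0302 and 0.0300 between libraries of the same number and at -0.0525 to 0.0243 between others. The median l2fc of the choroid plexus and ependyma list became -0.017 and that of the cell proliferation list -0.009 under a mean count of at least 50, which leaves 13 and 9 members. The same alternative moved other medians by more than 1.5 times: reactive astrocyte, A2 (0.634 to 0.34), midbrain and tectum (1.314 to 0.234), glycine and hindbrain neuron (0.791 to 0.171), complement (0.442 to 1.067), chemokine (2.026 to 0.336), inflammasome (1.02 to 0.293) and immediate early (-0.075 to -0.136); the matrix metalloproteinase median moved from 0.408 to 0.219 and, without Cb-N3, to 0.265. DESeq2 called 1 gene fewer higher than edgeR in the lists of oligodendrocyte precursors (3), forebrain (6), MHC class II (6), complement (11), cell proliferation (2) and neuropeptides (19), and 1 more lower among immediate early genes (6). Limma-voom called 10 Toll-like receptor and 4 proliferation genes higher. Of 197 single genes, 188 kept every call, 9 lost or gained one under some alternative, and 0 changed direction with a call. They were mostly chosen by a small p or a large change in these same libraries, so this share does not extend to other genes. Over all values of list medians but the 2 given first, 593 moved by less than the spread between replicates and 53 by more, those named above included. In all, 16 values of 6 lists had the other sign than in the main fit, in 4 of these lists from a median between -0.002 and 0.02. Depth limits genes near 3 counts.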
